A study of Mus musculus with 18 samples.

Results

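*St18*, *Grhl1* and *Tbx2* code for 3 transcription factors of different families, and the account covers these 3 of the 22708 genes in the deposited table. They were chosen by their own measured values: each was picked because its value shifted strongly between WT and *Ahr*-KO eosinophils, and *St18* also because of its shift in *Ahrr*-KO eosinophils. No cutoff was attached to that choice. Their differences between genotypes are therefore descriptions without a test. Tests on the 3 genes themselves are limited to sex, to the interaction of genotype with sex and to relations within a genotype.

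ST18 is a zinc finger protein of the NZF family, next to MYT1 and MYT1L, and in cultured fibroblasts it has been linked to cell death and inflammatory gene expression. GRHL1 belongs to the grainyhead family, which drives junction and barrier genes of epithelia, and TBX2 is a T-box protein known mainly as a repressor in embryonic development and of cell cycle inhibitors such as *Cdkn1a*. AHR, the aryl hydrocarbon receptor, is a ligand-activated transcription factor that pairs with ARNT on DNA, and AHRR is a repressor of AHR whose gene is itself an AHR target.

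The series holds bulk RNA sequencing of eosinophils sorted from the small intestine of 18 mice, 6 each of the genotypes labelled wildtype (WT), Ahr knockout (*Ahr*-KO) and Ahrr knockout (*Ahrr*-KO). Every group held 3 males and 3 females of strain C57/BL6, and all cells came from 1 sort gate, CD11b+ MHC-II- SiglecF+ SSChi. The labels give neither age nor knockout allele, the *Ahr* knockout is one of the whole animal, and the paper states that *Ahr*-KO and WT mice were neither littermates nor kept in shared cages. Litter and cage therefore cannot be told apart from genotype in that comparison. No source states that the library preparation kept strand.

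The values are the authors' variance-stabilized expression on a log2 scale, in which 5.02 stands for a count of 0 and genes with few reads differ by less than the log2 ratio of their counts would give. The transformation could be turned back to whole counts, which gives the depth. Total counts lay between 3842977 and 8149200 in WT (median 6022409), between 6581818 and 10284124 in *Ahr*-KO (median 9647589) and between 8788867 and 12046933 in *Ahrr*-KO (median 10371556). A low count is thus least precise in WT, and 1 count corresponds to a value between 5.22 and 5.38, depending on the sample. Both WT F3 and *Ahr*-KO F3 stood apart, with a count in 20244 and 19694 genes, while the other samples had between 15146 and 17236. Differences of the 3 genes are given with and without these libraries.

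The knocked-out genes were read in every sample. Female WT mice had *Ahr* values of 13.52, 14.26 and 13.78, and male ones 14.40, 13.74 and 13.40. Values of *Ahr*-KO mice were 14.56, 14.63 and 14.22 for females and 14.55, 14.67 and 14.15 for males. Those of *Ahrr*-KO mice were 14.42, 14.17 and 13.24 for females and 13.46, 13.56 and 13.03 for males. The samples labelled *Ahr*-KO thus overlapped the upper end of the WT range rather than lying below it, and the difference WT minus *Ahr*-KO was -0.61 (standard error 0.19, limma adjusted p = 0.0557).

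For *Ahrr*, female WT mice had 9.79, 10.04 and 10.23, and male ones 10.09, 10.39 and 10.14. *Ahr*-KO females had 5.02, 5.26 and 5.79 and males 5.02, 5.37 and 5.24, with a count of 0 in 2 samples. *Ahrr*-KO females had 10.93, 10.63 and 10.11 and males 9.95, 10.65 and 10.10. *Ahrr* was near its lowest value in every *Ahr*-KO sample, and the samples labelled *Ahrr*-KO overlapped WT. Its difference was 4.83 for WT minus *Ahr*-KO (standard error 0.14, limma adjusted p = 4.95e-12) and -0.28 for WT minus *Ahrr*-KO (standard error 0.18, adjusted p = 0.683). Counts over a whole gene do not check a knockout whose deleted part is unknown, so *Ahr*-KO and *Ahrr*-KO name samples as they are labelled throughout.

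*St18* (Entrez 240690, chromosome 1 from 6487231 to 6860940, plus strand, GRCm38) had values from 6.73 to 7.76 in WT (median 7.52), from 5.24 to 5.98 in *Ahr*-KO (median 5.54) and from 8.51 to 9.13 in *Ahrr*-KO (median 8.77). The order was *Ahrr*-KO highest, WT in the middle and *Ahr*-KO lowest, and no sample of one genotype reached the range of another. Raw counts ran from 43 to 157 in WT, from 1 to 13 in *Ahr*-KO and from 346 to 565 in *Ahrr*-KO. The means were 7.36 ± 0.38, 5.56 ± 0.30 and 8.77 ± 0.22 (SD, n = 6 each). Few reads of *St18* were thus found in the *Ahr*-KO samples, while every *Ahrr*-KO sample held more than the richest WT sample. The WT minus *Ahr*-KO difference was 1.80 (standard error 0.20), a ratio of mean normalized counts of 19, which is imprecise at such low counts. WT minus *Ahrr*-KO was -1.41 (standard error 0.18), with the mean normalized count 3.42 times as high in *Ahrr*-KO. Between neighbouring groups in this order the nearest samples were 0.75 apart on both sides.

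*Grhl1* (Entrez 195733, chromosome 12 from 24572232 to 24617391, plus strand) ran from 5.88 to 7.24 in WT (median 6.44), from 7.96 to 9.36 in *Ahr*-KO (median 8.51) and from 6.13 to 7.10 in *Ahrr*-KO (median 6.43). All 6 *Ahr*-KO samples lay above every other sample, whereas WT and *Ahrr*-KO covered nearly the same range. Raw counts were 10 to 58 in WT, 165 to 709 in *Ahr*-KO and 32 to 86 in *Ahrr*-KO. The means were 6.50 ± 0.48, 8.56 ± 0.57 and 6.56 ± 0.41 (SD, n = 6 each). WT minus *Ahr*-KO was -2.06 (standard error 0.31), with a mean normalized count 8.08 times as high in *Ahr*-KO, and the nearest samples of the 2 groups were 0.72 apart. WT minus *Ahrr*-KO was -0.06 (standard error 0.26), which is smaller than the spread within either group.

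*Tbx2* (Entrez 21385, chromosome 11 from 85832615 to 85841948, plus strand) had few reads in every group. It ran from 5.02 to 5.66 in WT (median 5.30), from 5.99 to 6.53 in *Ahr*-KO (median 6.26) and from 5.02 to 5.89 in *Ahrr*-KO (median 5.49). The *Ahr*-KO samples again lay above all others, by a margin of 0.33 over WT and only 0.09 over *Ahrr*-KO, and WT and *Ahrr*-KO overlapped. *Tbx2* had 0 reads in 3 WT samples (F1, F3 and M2) and in 1 *Ahrr*-KO sample (F2). Raw counts reached 6 in WT and 15 in *Ahrr*-KO, and lay between 16 and 51 in *Ahr*-KO. The means were 5.32 ± 0.33, 6.27 ± 0.21 and 5.52 ± 0.31 (SD, n = 6 each). WT minus *Ahr*-KO was -0.95 (standard error 0.16), a mean normalized count of 26.5 ± 9.02 in *Ahr*-KO against 2.86 ± 3.18 in WT (SD). WT minus *Ahrr*-KO was -0.19 (standard error 0.18), smaller than the spread within either group.

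**Figure D1:**
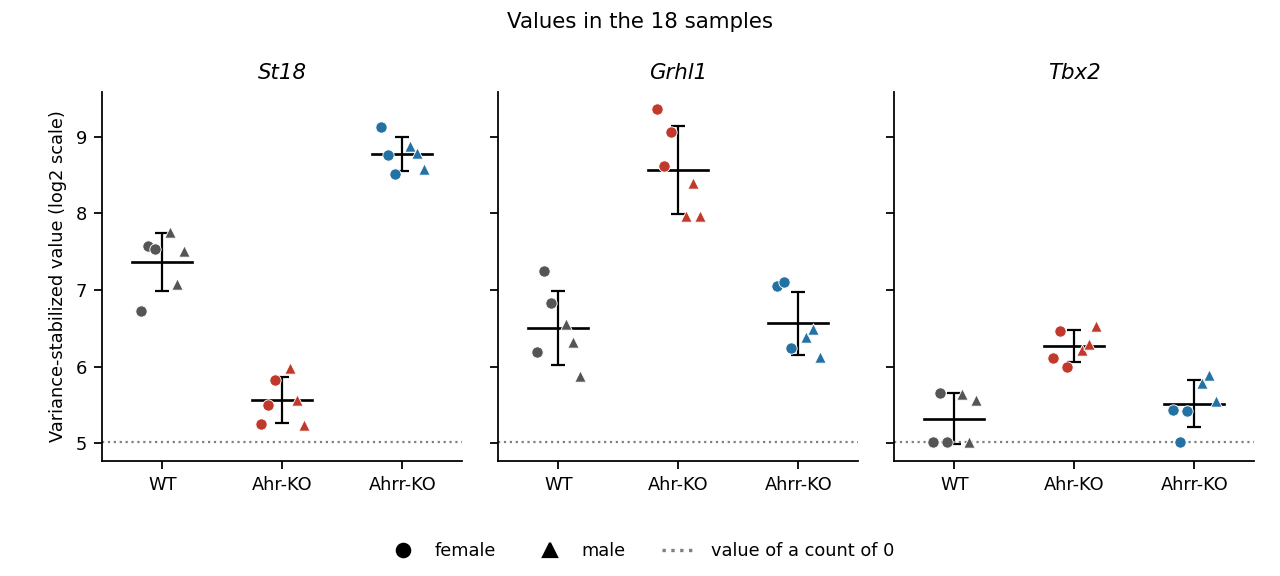
Variance-stabilized value (log2 scale) of *St18*, *Grhl1* and *Tbx2* in each of the 18 samples, with circles for females, triangles for males, lines for group means and bars for 1 SD (n = 6 per group), and a dotted line at the value of a count of 0. *St18* orders the 3 genotypes without overlap, and the *Ahr*-KO samples stand above all others for *Grhl1* and *Tbx2*.

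For 3 of the 3 genes the WT and *Ahr*-KO samples did not overlap, a pattern that choosing them by this contrast favours. Over all 11346 genes that had a mean of 1 or more above the lowest value over the 12 samples, the groups did not overlap for 512 (4.51%), and limma called 1003 (8.84%) at an adjusted p under 0.05, of which 418 were higher in WT and 585 in *Ahr*-KO. WT and *Ahrr*-KO did not overlap for 1 of the 3 genes, *St18*, which was chosen on this contrast as well, against 53 of 11546 genes (0.459%), and limma called 9 (0.0779%), each higher in *Ahrr*-KO. By absolute difference, *Grhl1* ranked 19 and *St18* 26 among the genes tested between WT and *Ahr*-KO. Between WT and *Ahrr*-KO *St18* ranked 23 and *Grhl1* 8954. *Tbx2* lay below the minimum mean in both comparisons, so 2 of the 3 genes entered these fits. Both comparisons share the WT samples.

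Leaving out WT F3 and *Ahr*-KO F3, the WT minus *Ahr*-KO difference was 1.82 for *St18*, -2.02 for *Grhl1* and -0.94 for *Tbx2*. The WT minus *Ahrr*-KO differences were then -1.45, -0.08 and -0.16 in the same order. None of the 3 genes moved by as much as its spread, but the number of genes called between WT and *Ahr*-KO fell to 586. It was 623 without *Ahr*-KO F1 alone. The number called against *Ahrr*-KO was 25 without *Ahrr*-KO F1 and lay between 4 and 5 without WT F1, F2, M2 or M3 or without *Ahrr*-KO F2, F3, M2 or M3.

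The differences had the same direction in each sex. For *St18*, WT minus *Ahr*-KO was 1.75 in females and 1.86 in males, and WT minus *Ahrr*-KO was -1.52 and -1.30. *Grhl1* gave -2.26 and -1.85 for WT minus *Ahr*-KO, and *Tbx2* gave -0.95 and -0.94. The size of a log2 difference depends on the scale for such low counts. On a log2(count + 1) scale the WT minus *Ahr*-KO difference became 4.40 for *St18*, -3.13 for *Grhl1* and -3.34 for *Tbx2*, and WT minus *Ahrr*-KO became -0.82 for *Tbx2* (standard error 0.73).

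Levels of different genes can be set side by side only per length of their exons. Per kilobase of exon, the mean normalized count of *St18* was 17.2 ± 6 in WT, 0.906 ± 0.87 in *Ahr*-KO and 58.7 ± 11 in *Ahrr*-KO (SD, n = 6 each). For *Grhl1* it was 7.62 ± 5.3, 61.6 ± 29 and 8.05 ± 4.7, and for *Tbx2* 0.79 ± 0.88, 7.31 ± 2.5 and 1.42 ± 1.3, in the same order of groups. *St18* was thus the most abundant of the 3 per length in WT and *Ahrr*-KO samples, and *Grhl1* in *Ahr*-KO samples, where *St18* was the least abundant. In bulk RNA, fewer cells that carry a transcript and less of it per cell cannot be told apart.

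The sexes were compared over all 18 samples with genotype in the model, a contrast balanced over the one that chose the genes. Of the 3 genes, *Grhl1* passed the test, against 351 of the 11468 genes tested (3.06%), of which 282 were higher in females. *Grhl1* was higher in females, with a mean of 7.52 against 6.90 in males, a difference of 0.63 (standard error 0.16, limma adjusted p = 0.0382). In WT, females ran from 6.19 to 7.24 (median 6.83) and males from 5.88 to 6.55 (median 6.32). In *Ahr*-KO, females ran from 8.62 to 9.36 (median 9.06) and males from 7.96 to 8.39 (median 7.96). In *Ahrr*-KO, females ran from 6.24 to 7.10 (median 7.05) and males from 6.13 to 6.49 (median 6.38). All 3 *Ahr*-KO females were above all *Ahr*-KO males, and in WT and *Ahrr*-KO 2 of the 3 females were above all males of their genotype. Means of cell type markers, described further below, also split by sex in *Ahr*-KO for 3 of 12 lists. With 3 females against 3 males, such splits also arise by chance, and they were not tested. The eosinophil markers ran from 8.91 to 9.07 in *Ahr*-KO females and from 8.67 to 8.75 in males, while the macrophage and dendritic cell markers were lower in all females (median 7.86, highest 8.15) than in any male (median 8.90, highest 8.96). The enteroendocrine markers were lower in females, at up to 5.84 against 5.86 or more in males. In WT and *Ahrr*-KO the sexes overlapped for these 3 lists, and only the fibroblast and smooth muscle markers split elsewhere, in WT, from 6.33 to 6.60 in females and from 6.08 to 6.24 in males. The part of these cell types in the sex difference of *Grhl1* was not tested.

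This call lies close to the threshold. It was lost without a minimum mean (limma adjusted p = 0.082), on the log2(count + 1) scale (0.0631) and without both WT F3 and *Ahr*-KO F3 (0.0911), and over all such settings the adjusted p ran from 0.0302 to 0.0911. Leaving out 1 sample at a time kept it in 5 of 18 cases, with adjusted p from 0.00847 to 0.0919 and a difference from 0.56 to 0.72. The samples without which it was lost were WT F2, F3, M2 and M3, each of the 6 *Ahr*-KO samples, and *Ahrr*-KO F1, F2 and M3. *St18* had a female minus male difference of -0.06 (standard error 0.14, limma adjusted p = 0.85). *Tbx2*, which could be fitted only without a minimum mean, had -0.27 (standard error 0.12, limma adjusted p = 0.379). In *Ahrr*-KO the *Tbx2* values of the females, 5.02 to 5.43, lay below those of the males, 5.55 to 5.89. They rest on raw counts of 3, 0 and 4 in females and 11, 15 and 7 in males, close to the lowest value. Such a split of 3 against 3 samples can arise by chance and was not tested within the genotype.

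Whether the genotype difference depended on sex was asked with an interaction term. Between WT and *Ahr*-KO it was -0.10 for *St18* (standard error 0.38, limma adjusted p = 0.985), -0.41 for *Grhl1* (0.38, adjusted p = 0.959) and -0.01 for *Tbx2* (0.33, adjusted p = 0.995 without a minimum mean). Between WT and *Ahrr*-KO it was -0.23 (0.36, adjusted p = 0.835), 0.04 (0.42, adjusted p = 0.979) and 0.27 (0.31, adjusted p = 0.769), again from limma. None of the 3 genes passed. Over all genes limma called 0 interactions for *Ahr*-KO, with 533 at an unadjusted p under 0.05, and 0 for *Ahrr*-KO, with 544. The voom variant of limma on the counts also called 0 in each, with 549 and 457 at an unadjusted p under 0.05.

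Within a genotype the 3 genes were compared pair by pair over its 6 samples, 9 relations in all. The strongest was *St18* with *Tbx2* in WT (Pearson r = 0.723, exact permutation p = 0.1; Spearman rho = 0.759, exact permutation p = 0.117), and r was 0.414 without the 2 samples farthest from the median of *St18*. *St18* and *Grhl1* in *Ahrr*-KO gave r = 0.693 (exact permutation p = 0.126; rho = 0.543, p = 0.297), and 0.355 without 2 samples. *Grhl1* and *Tbx2* in *Ahr*-KO gave r = -0.668 (exact permutation p = 0.156; rho = -0.543, p = 0.297), which became 0.144 without 2 samples. After adjustment over the 9 relations the exact permutation p lay between 0.467 and 0.893 for r and between 0.535 and 0.658 for rho, so no pair passed. Without 2 samples the r of *Grhl1* and *Tbx2* in *Ahrr*-KO turned from -0.575 to 0.852.

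The RefSeq promoter table (GRCm38.p6, 250 bases before to 50 after a start) matched 1 of the 3 genes, *Grhl1*, with 2 promoters; *St18* and *Tbx2* were not matched. The first *Grhl1* promoter, chr12:24572037-24572336 on the plus strand, is printed because it holds the core letters of the AHR motif and *Grhl1* was highest in samples labelled *Ahr*-KO. GCGTG and the longer TNGCGTG, which contains it, were searched on both strands, and GCGTG is in capitals.
Grhl1 promoter: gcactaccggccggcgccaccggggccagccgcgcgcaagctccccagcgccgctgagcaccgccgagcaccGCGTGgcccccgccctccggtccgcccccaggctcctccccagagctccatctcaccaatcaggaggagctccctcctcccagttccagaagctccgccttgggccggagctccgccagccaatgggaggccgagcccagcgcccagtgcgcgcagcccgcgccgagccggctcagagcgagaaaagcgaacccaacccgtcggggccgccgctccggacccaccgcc
It holds TNGCGTG 0 times and GCGTG 1 time, on the strand of the gene and 178 bases before the start that places this promoter. That start lies downstream of the gene start given above. The second promoter of *Grhl1* (chr12:24580469-24580768) holds neither. Of 32851 promoters of this length, 10639 (32.4%) hold GCGTG and 1664 (5.07%) hold TNGCGTG, and the promoter of *Ahrr* holds GCGTG 3 times and TNGCGTG 1 time. Such a match is a description of the letters and no evidence of binding.

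The genes around *Tbx2* were not used in the choice. Upstream of it, 4 of the 5 nearest annotated genes were tested and all 4 were higher in *Ahr*-KO than in WT. Each of the 4 was called by limma, beside 585 of 11346 genes called higher in *Ahr*-KO over the whole comparison. The nearest, the long noncoding RNA gene *2610027K06Rik*, lies on the minus strand, so that it starts 227 bases before *Tbx2* and runs away from it. It ran from 5.90 to 6.68 in WT (median 6.41), from 7.54 to 8.11 in *Ahr*-KO (median 7.96) and from 6.21 to 6.71 in *Ahrr*-KO (median 6.48). Like *Tbx2*, it was above all other samples in the 6 *Ahr*-KO samples, and WT and *Ahrr*-KO overlapped. Its difference WT minus *Ahr*-KO was -1.59 (standard error 0.15, limma adjusted p = 3.13e-06).

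*Bcas3*, which ends 6557 bases before *Tbx2* on the same strand, ran from 7.77 to 8.47 in WT (median 8.04) and from 8.99 to 9.21 in *Ahr*-KO (median 9.10). Its difference was -1.03 (standard error 0.12, limma adjusted p = 2.74e-05). *Bcas3os2* rose as well (-1.24, standard error 0.15, limma adjusted p = 4.72e-05). *Bcas3os1* was also called (-0.79, standard error 0.21, limma adjusted p = 0.0308), but that call was lost in 8 of 22 alternatives, with adjusted p from 0.00834 to 0.0817. The samples it rested on were WT F1 and F3 and *Ahr*-KO F1, F2, M1 and M2, without any of which the adjusted p lay between 0.0544 and 0.0656. *Mir5110* lay below the minimum mean, with mean normalized counts of 7.18 in WT, 27.3 in *Ahr*-KO and 6.37 in *Ahrr*-KO.

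None of the 4 was called between WT and *Ahrr*-KO, where 0.0779% of all tested genes were called. *Bcas3os1*, *Bcas3os2* and *Mir5110* lie inside *Bcas3* on the opposite strand and *2610027K06Rik* overlaps its end, so without strand their reads and those of *Bcas3* cannot be told apart. Downstream of *Tbx2*, its relative *Tbx4* had a mean normalized count of 0.198 in WT, 0.314 in *Ahr*-KO and 0.559 in *Ahrr*-KO. *Brip1*, a DNA repair helicase gene further on, was 0.12 for WT minus *Ahr*-KO (standard error 0.14, limma adjusted p = 0.644). The other 3 nearest annotated genes on that side, *Gm11443*, *Gm20759* and *Atp5l-ps2*, are not in the table.

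Of the 5 nearest annotated genes on each side of the other 2 genes, those tested gave no call. Over all tested genes 8.84% were called against *Ahr*-KO and 0.0779% against *Ahrr*-KO. *Kidins220* and *Id2*, farther from *Grhl1*, were called and are described below. Next to *Grhl1*, *Taf1b*, a subunit of the RNA polymerase I machinery, was -0.04 for WT minus *Ahr*-KO (standard error 0.12, limma adjusted p = 0.859), and *Klf11*, a zinc finger factor gene, was -0.23 (standard error 0.11, limma adjusted p = 0.226). *Cys1* lay below the minimum mean, at 6.59, 15.2 and 12.2 mean normalized counts in WT, *Ahr*-KO and *Ahrr*-KO. Around *St18*, *Rb1cc1*, an autophagy gene, was 0.07 (standard error 0.13, limma adjusted p = 0.787), and *Pcmtd1* was 0.13 (standard error 0.18, limma adjusted p = 0.699). *Alkal1* was near 0, at 1.38 mean normalized counts in WT. Against *Ahrr*-KO, *Taf1b* was 0.42 (standard error 0.13, limma adjusted p = 0.509) and *Rb1cc1* 0.22 (standard error 0.16, adjusted p = 0.707). The other nearest genes of *St18* and *Grhl1* are not in the table.

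**Figure D2:**
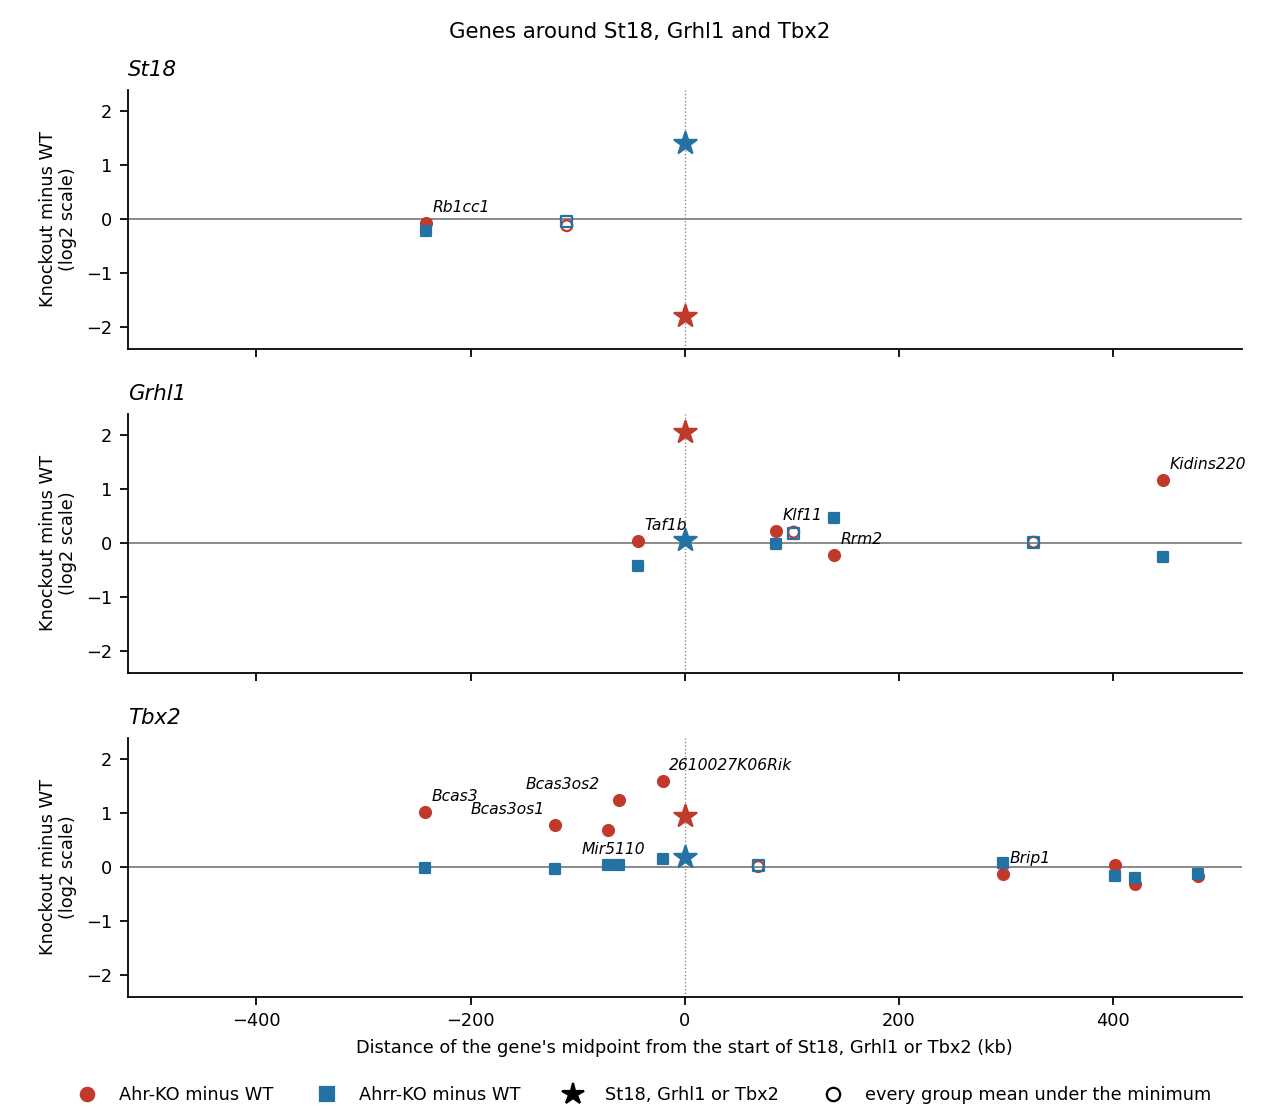
Difference from WT (log2 scale) of the genes within 500 kb of *St18*, *Grhl1* and *Tbx2*, by the distance of each gene's midpoint from the start of the named gene, as circles for *Ahr*-KO minus WT and squares for *Ahrr*-KO minus WT, with open symbols for genes below the minimum in every group and stars for the 3 genes. Genes on the *Bcas3* side of *Tbx2* lie above 0 in *Ahr*-KO and near 0 in *Ahrr*-KO, while those next to *St18* lie near 0. On the right of *Grhl1*, *Kidins220* lies above 0 in *Ahr*-KO.

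*Grhl1* shares chromosome 12 with *Ahr*, with 10880588 bases between its end and the start of *Ahr*. Between them, limma called 9 of 35 tested genes for WT against *Ahr*-KO (25.7%), 3 higher in WT and 6 in *Ahr*-KO. On the rest of chromosome 12 it called 30 of 348 (8.62%), and on the other chromosomes 963 of 10961 (8.79%). That rest holds called genes just past *Ahr* on its far side. They were *9130015A21Rik* (WT minus *Ahr*-KO -1.151, 0.149 Mb from the start of *Ahr*), *Agr2* (0.671, 0.464 Mb) and *Agmo* (-0.856, 1.877 Mb). *Tspan13*, *Bzw2* and *Ankmy2*, which lie among them, were not called. Beyond *Grhl1*, *Adam17* was called as well (-0.494). Against *Ahrr*-KO the counts were 0 of 37 between them, 1 of 357 on the rest of the chromosome and 8 of 11150 elsewhere. At an unadjusted p under 0.05 limma gave 853 genes over the whole comparison with *Ahrr*-KO, and voom called 4. These shares were not compared by a test, and over the alternatives the number called between *Grhl1* and *Ahr* lay between 6 and 10.

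Of the genes in that interval, *Id2*, an inhibitor of basic helix-loop-helix factors, rose from a mean normalized count of 153.2 in WT to 550.5 in *Ahr*-KO (WT minus *Ahr*-KO -1.52, standard error 0.14, limma adjusted p = 3.52e-06). *F730043M19Rik* was -1.36 (standard error 0.16, adjusted p = 3.63e-05 from limma) and *Kidins220*, a membrane scaffold gene, was -1.16 (standard error 0.13, adjusted p = 3.27e-05). *Acp1*, a small tyrosine phosphatase, was higher in WT by 0.83 (standard error 0.08, limma adjusted p = 6.81e-06). The other called genes were *Adi1* at -0.77, *Prps1l1* at -0.64 and *Pik3cg*, the catalytic subunit of a PI3 kinase of leukocytes, at -0.45, with *Rnf144a* at 0.58 and *Trappc12* at 0.38. The calls of *Adi1*, *Pik3cg*, *Rnf144a* and *Trappc12* were each lost under at least 1 alternative. *Adi1* and *Pik3cg* were lost with all 18 samples in the fit (limma adjusted p = 0.0619 and 0.061, the highest over the alternatives, the lowest being 0.00281 and 0.00515). *Rnf144a* was lost in 8 of 21 alternatives, which were no minimum mean, both F3 libraries left out, and 1 sample left out for WT F3 or M2 or *Ahr*-KO F1, F2, M1 or M3 (limma adjusted p from 0.0504 to 0.0756, and down to 0.0115 over all alternatives). *Trappc12* was lost without WT M2 and without *Ahr*-KO F1, M2 or M3 (limma adjusted p from 0.0511 to 0.0675, and down to 0.0134 over all alternatives). The part that position beside *Ahr* has in the *Grhl1* values was not tested.

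**Figure D3:**
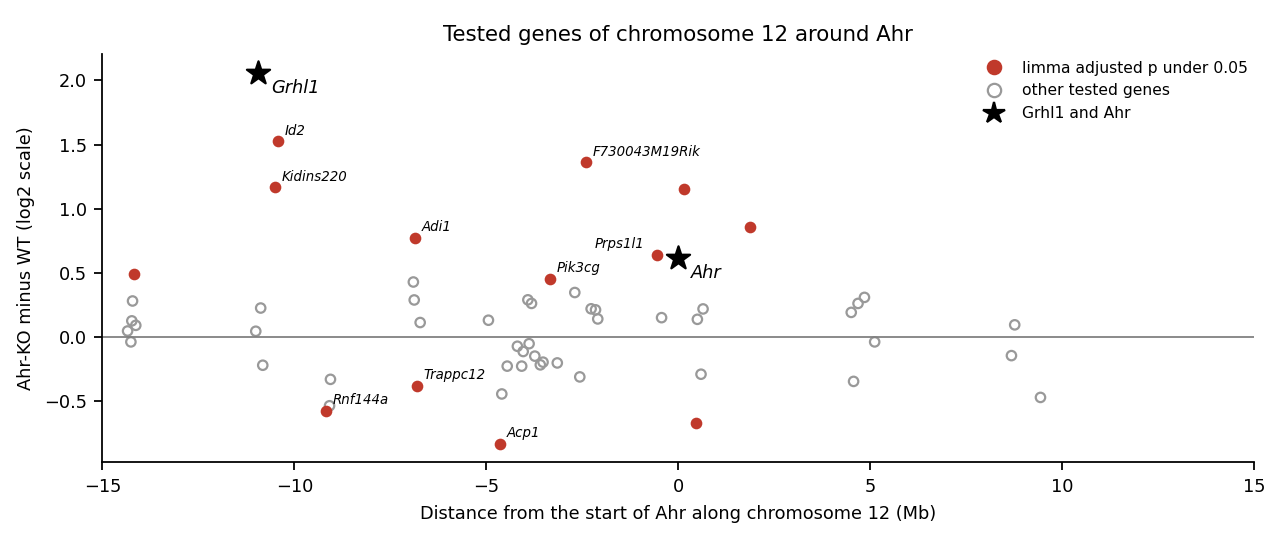
*Ahr*-KO minus WT difference (log2 scale) of the tested genes of chromosome 12 within 15 Mb of *Ahr*, by distance from the start of *Ahr*, with filled points for a limma adjusted p under 0.05 and stars for *Grhl1* and *Ahr*, which are shown without a call. Of the 9 called genes between the stars, 6 lie above 0 and 3 below. Called genes also lie to the right of *Ahr*.

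The relatives of the 3 genes gave no call in either comparison. Over all tested genes, 8.84% were called against *Ahr*-KO and 0.0779% against *Ahrr*-KO. With so few relatives tested, the lack of a call does not set them apart from those shares. *Myt1* and *Myt1l*, the other NZF genes, lay below the minimum mean. *Myt1* ran from 5.02 to 6.50 in WT, from 5.02 to 5.89 in *Ahr*-KO and from 5.25 to 5.62 in *Ahrr*-KO, and *Myt1l* from 5.02 to 6.54, 5.51 and 5.22, so the groups overlapped. In the grainyhead and CP2 family, 0 of 4 tested genes of 5 passed (limma). *Ubp1*, a CP2 relative, had mean normalized counts of 1350.9, 1386.1 and 1044.3. *Grhl2*, the nearest relative tested, was 0.31 for WT minus *Ahr*-KO (standard error 0.21, limma adjusted p = 0.386). The median difference of this family was 0.11 for WT minus *Ahr*-KO and 0.01 for WT minus *Ahrr*-KO. Over all tested genes these medians were 0.00 and -0.01.

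Of 15 T-box genes in the table, 3 were tested against *Ahr*-KO (median -0.13) and 2 against *Ahrr*-KO (median -0.24). *Mga* had mean normalized counts of 1944.2, 2096.9 and 1791.2. *Tbx3*, the closest relative of *Tbx2*, was 0.19 for WT minus *Ahr*-KO (standard error 0.20, limma adjusted p = 0.594) and -0.58 for WT minus *Ahrr*-KO (standard error 0.31, adjusted p = 0.671). The 10 corepressors and partners through which such factors can act, among them *Sin3a*, *Hdac1* and *Kdm1a*, were all tested, and 0 passed, with medians of 0.06 and -0.03. Over all tested genes 8.84% were called against *Ahr*-KO and 0.0779% against *Ahrr*-KO, so 0 of 10 lies near those shares. *Egr1* was 0.73 (standard error 0.44, limma adjusted p = 0.344) for WT minus *Ahr*-KO. At an unadjusted p under 0.05 limma gave 2638 genes for this whole comparison, and voom called 990.

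Genes known as grainyhead targets in epithelia were mostly uncalled. Of 14 tested among 18, 2 were called against *Ahr*-KO, both higher there, where 8.84% of all tested genes were called. *Tgm1*, a transglutaminase of the cornified layer, was -0.53 for WT minus *Ahr*-KO (standard error 0.12, limma adjusted p = 0.01). *Ovol1*, a zinc finger factor of epithelia, was -0.34 (standard error 0.10, limma adjusted p = 0.0474). *Ovol1* was called in 2 of 21 alternatives (adjusted p from 0.0298 to 0.177) and by none that left out 1 of the 12 samples, where it ran from 0.0561 to 0.116. *Tgm1* was lost with all 18 samples in the fit (0.0877) and without both F3 libraries (0.0514), with a range from 0.00436 to 0.0877 over the alternatives.

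The other 12 tested targets were above 0, that is on the WT side, and the list's median was 0.50. For instance *Cdh1*, E-cadherin, was 0.55 (standard error 0.30, limma adjusted p = 0.282) and *Epcam* 0.64 (standard error 0.26, limma adjusted p = 0.144). Against *Ahrr*-KO 0 of 15 tested targets were called, beside 0.0779% of all tested genes, 0 lay above 0 and the median was -0.41. *Epcam* is also among the 13 enterocyte markers, of which 9 were above 0 against *Ahr*-KO (median 0.45) and 0 against *Ahrr*-KO (median -0.66). Against *Ahr*-KO, *Muc13* was the only one of the 13 called (1.0, standard error 0.24, limma adjusted p = 0.0164), beside 8.84% called over all tested genes. That call was lost with all 18 samples in the fit (0.139) and without both F3 libraries (0.0706). The summed normalized count of the enterocyte markers ran from 5629 to 20408 in WT (median 8282), from 4180 to 9255 in *Ahr*-KO (median 7619) and from 6128 to 29760 in *Ahrr*-KO (median 20130). The gene with the most counts among them was *Krt19*, and the part of epithelial RNA in the list's values was not tested.

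Among genes known as TBX2 targets, 0 of 4 tested of 7 passed against *Ahr*-KO (median 0.34) and 0 of 5 against *Ahrr*-KO (median -0.15). These lie near the 8.84% and 0.0779% called over all tested genes. *Cdkn1a*, the cell cycle inhibitor p21, was 0.47 for WT minus *Ahr*-KO (standard error 0.14, limma adjusted p = 0.0511). Of 15 tested among 18 cell death and inflammation genes of the kind linked to ST18, 1 was called higher in WT and 1 higher in *Ahr*-KO (median -0.13), beside 8.84% called over all tested genes, and 0 against *Ahrr*-KO (median 0.08). *Il6*, an inflammatory cytokine and the gene called higher in *Ahr*-KO, was -1.46 (standard error 0.40, limma adjusted p = 0.0334), with mean normalized counts of 238.0 in WT against 799.8 in *Ahr*-KO. The call of *Il6* was lost in 9 of 22 alternatives, with adjusted p from 0.00835 to 0.108, and without any of WT F3, WT M3 or *Ahr*-KO F1, F2, M2 and M3 it lay between 0.0614 and 0.083.

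In the AHR pathway, 4 of 9 tested genes of 12 were called against *Ahr*-KO, each higher in WT (median 0.35), beside 418 of 11346 genes called higher in WT over the whole comparison (median 0.00). They were *Ahrr* itself, *Cyp1b1*, a cytochrome P450, at 4.07 (standard error 0.24, limma adjusted p = 1.93e-08), *Tiparp* at 2.60 (standard error 0.18, adjusted p = 1.56e-07) and *Nqo1*, a quinone reductase, at 1.82 (standard error 0.12, adjusted p = 1.27e-07). Against *Ahrr*-KO limma called 0 of 9 (median -0.10), beside 0.0779% of all tested genes. *Arnt*, the partner of AHR, was 0.13 (standard error 0.12, limma adjusted p = 0.575) for WT minus *Ahr*-KO.

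**Figure D4:**
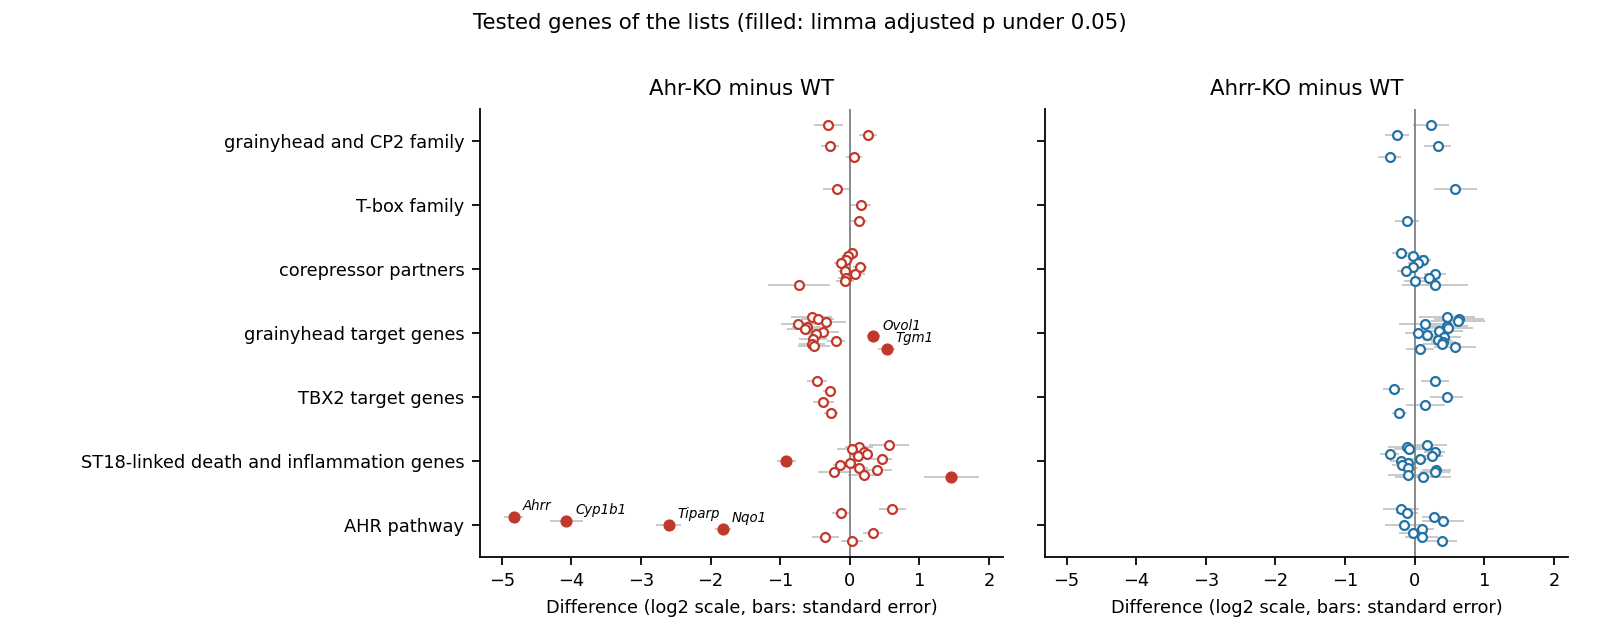
Knockout minus WT difference (log2 scale, bars for the standard error) of the tested genes of 7 lists, for *Ahr*-KO and *Ahrr*-KO, with filled points for a limma adjusted p under 0.05 and names at the called genes of the grainyhead target and AHR pathway lists. The 8 called genes are all in the *Ahr*-KO panel, 4 of them in the AHR pathway.

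Likeness was measured as the Pearson correlation over the 18 samples with each of 11468 genes, and since the samples fall into genotype groups, it mostly describes the order of the genotypes. The correlation of the deviations from the genotype means is given beside it. *St18* was most like *Ppbp*, the chemokine gene of platelet basic protein (r = 0.979, rho = 0.979, within genotypes 0.764), then *Bicdl2* (r = 0.914), *Cyp1b1* (0.906), *Ppfibp2* (0.904) and *Ahrr* (0.902). The last 4 had correlations within genotypes of 0.291, 0.355, 0.381 and 0.371. *Ppbp* had mean normalized counts of 291.8 in WT, 4.31 in *Ahr*-KO and 746.2 in *Ahrr*-KO. It thus had the order of *St18*, with WT minus *Ahr*-KO at 2.83 (standard error 0.24) and WT minus *Ahrr*-KO at -1.28 (standard error 0.26). Since genes most like or opposite to the 3 were picked for following their order over the genotypes, such differences are given here without a test. Calls of those that are also in a fixed list or beside *Tbx2* are given with that group. Most opposite to *St18* were *Hhex*, a homeobox gene (r = -0.898), *BC051142* (-0.896) and *Chn2*, a Rac regulator (-0.882), with correlations within genotypes of -0.154, -0.025 and 0.198.

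*Grhl1* was most like *Prg2*, the gene of the major basic protein of eosinophil granules (r = 0.953, rho = 0.932, within genotypes 0.734). *Prg2* ran from 6.69 to 7.61 in WT (median 6.93), from 8.60 to 9.95 in *Ahr*-KO (median 9.41) and from 6.48 to 7.96 in *Ahrr*-KO (median 7.21). All *Ahr*-KO samples were again on top, with a difference WT minus *Ahr*-KO of -2.30 (standard error 0.17). Next came *Cblb*, a ubiquitin ligase (0.949), *Klra2*, a lectin-like receptor (0.946), *Bcas3*, the neighbour of *Tbx2* (0.940), and *Gm14548* (0.935), a symbol that more than 1 gene of the table carries. Within genotypes these gave 0.789, 0.699, 0.623 and 0.631. Most opposite were *Galm*, a galactose epimerase (-0.957, within genotypes -0.847), *Aldh3a2*, a fatty aldehyde dehydrogenase (-0.908, -0.382), and *Pik3r3* (-0.907, -0.677).

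*Tbx2* was most like *Maml2*, a Notch coactivator gene (r = 0.886, rho = 0.827), *Inpp4b*, a lipid phosphatase (0.876), *Clec12a*, an inhibitory receptor (0.867), *Abcg2*, an efflux transporter (0.855), and its neighbour *2610027K06Rik* (0.848). Within genotypes the correlations were 0.586, 0.595, 0.459, 0.385 and 0.311. Most opposite were *Ovca2* (-0.880), *Nfasc* (-0.872) and *Serpinb10* (-0.852), with -0.654, -0.601 and -0.504 within genotypes. Of these, *Clec12a* had a WT minus *Ahr*-KO difference of -1.76 (standard error 0.12) and *Ovca2* of 1.50 (standard error 0.15).

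**Figure D5:**
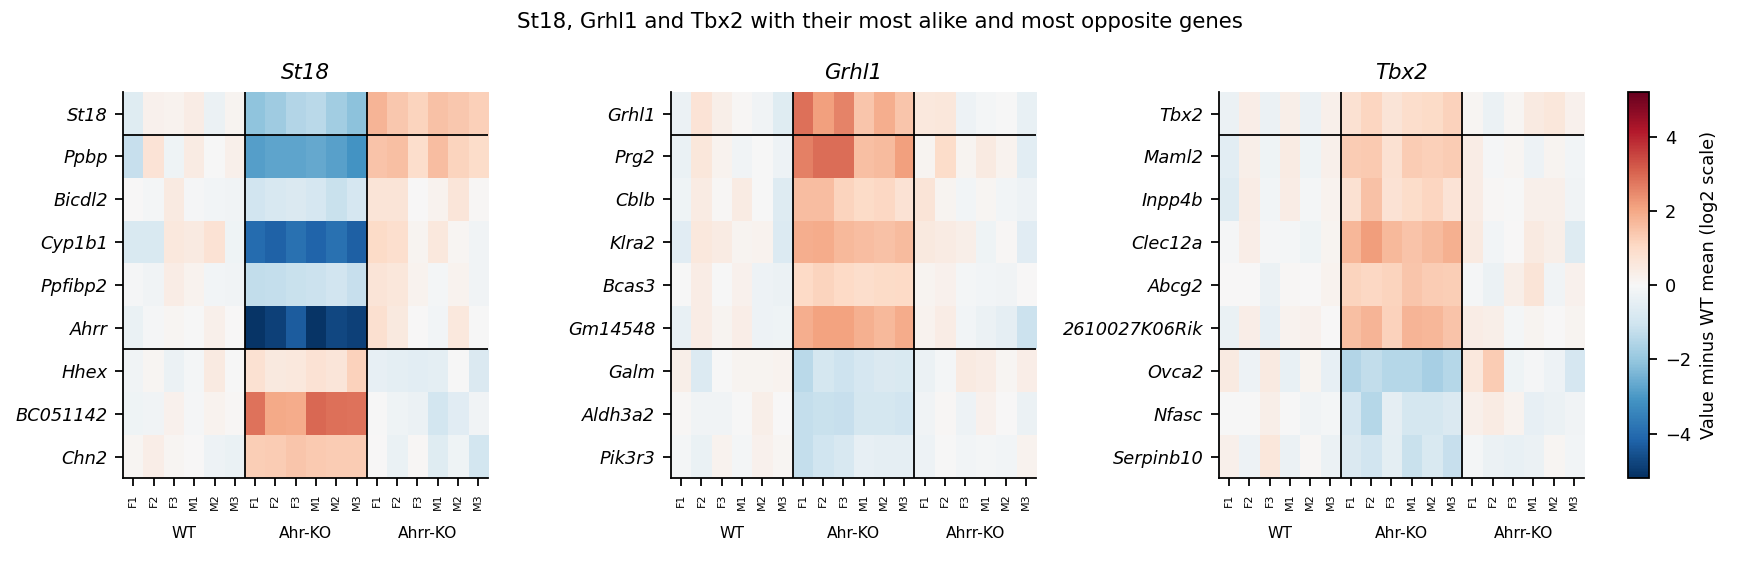
Value minus the WT mean (log2 scale, color) in each of the 18 samples for *St18*, *Grhl1* and *Tbx2*, each above the 5 genes most like it and the 3 most opposite over the 18 samples. The *Ahr*-KO columns differ most from WT, and in the *Ahrr*-KO columns *St18* and *Ppbp* are the genes that stand at least 0.91 above the WT mean in every sample.

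Markers fixed for the sorted cells and for other cell types were averaged per sample and compared by an exact permutation test. A list is led by the gene with the most normalized counts, which were not divided by exon length. The eosinophil markers, 11 genes led by *Alox15* and with *Ear6* at a mean under 1 count, gave 8.47 ± 0.14 in WT and 8.85 ± 0.16 in *Ahr*-KO (SD, n = 6, exact permutation p = 0.00216, adjusted p = 0.0519). That p is the smallest that 6 against 6 samples can give, and over 24 tests 1 list alone cannot reach an adjusted p below 0.0519, so these tests do not tell whether its mean differed. *Prg2* is 1 of these 11, and at -2.30 it had the largest difference among the 6 of them that were tested. Of these 6, 2 were called, *Prg2* and 1 other, both higher in *Ahr*-KO, beside 8.84% called over all tested genes. The other was *Alox15*, at -0.58 (standard error 0.15, limma adjusted p = 0.023), a call lost in 8 of 22 alternatives (adjusted p up to 0.157). *Siglecf*, part of the gate, had mean normalized counts of 2036.4, 2648.3 and 1643.7 in WT, *Ahr*-KO and *Ahrr*-KO, and *Ccr3*, the eotaxin receptor, had 12434.1, 12760.2 and 10731.7. The granule gene *Epx* was low, at 10.9, 10.4 and 9.3. The summed count of the eosinophil markers ran from 25382 to 38822 in WT (median 35482) and from 38955 to 50176 in *Ahr*-KO (median 45413), so the groups did not overlap. In *Ahrr*-KO it ran from 14617 to 39373 (median 32671), and the list's mean differed from WT by 0.07 (exact permutation test, adjusted p = 0.722).

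The other 11 lists had higher p in both comparisons. The largest difference was in the pancreatic acinar markers, which were higher in WT by 1.44 against *Ahr*-KO (exact permutation p = 0.0216, adjusted p = 0.173) and by 1.0 against *Ahrr*-KO (adjusted p = 0.308). Led by *Ctrb1*, their summed count ran from 80.2 to 4305 in WT, from 38.6 to 560.2 in *Ahr*-KO and from 86 to 2347 in *Ahrr*-KO, so the groups overlapped. All 7 of its genes tested against *Ahr*-KO lay on the WT side. Of these 7, 2 were called, beside 418 of 11346 genes called higher in WT over the whole comparison. They were *Ctrb1* at 2.74 (standard error 0.69, limma adjusted p = 0.0206) and *Prss2* at 1.22 (standard error 0.36, limma adjusted p = 0.0445). Both calls were unstable, that of *Ctrb1* being lost in 5 of 21 alternatives (adjusted p up to 0.126) and that of *Prss2* in 11 of 16 (up to 0.191). The neutrophil markers, led by *Retnlg* and with *Elane* under 1 count, were -0.12 against *Ahr*-KO (adjusted p = 0.798) and -0.60 against *Ahrr*-KO (exact permutation p = 0.00866, adjusted p = 0.104). Their sum, nearly all of it *Retnlg*, ran from 23756 to 48589 in WT, from 54967 to 113283 in *Ahr*-KO and from 23902 to 45062 in *Ahrr*-KO, above WT in every *Ahr*-KO sample. Mean normalized counts in WT, *Ahr*-KO and *Ahrr*-KO were only 1.38, 1.1 and 1.96 for *Ly6g* and 6.54, 1.57 and 2.46 for *Mpo*. Of the 9 neutrophil genes, 4 had a higher mean value in WT than in *Ahr*-KO. Against *Ahr*-KO 5 genes of the list were tested and 1 was called each way, beside 8.84% called over all tested genes. These were *Retnlg* at -1.21 (standard error 0.24, limma adjusted p = 0.00453) and *Mmp8*, higher in WT, at 0.92 (standard error 0.20, limma adjusted p = 0.00677). Of this list, *S100a8* at -2.06 (standard error 0.22, limma adjusted p = 0.000667) and *S100a9* at -2.10 (standard error 0.19, adjusted p = 0.00022) were among the 9 genes called between WT and *Ahrr*-KO.

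The endothelial markers, led by *Pecam1*, were 0.15 against *Ahr*-KO (exact permutation test, adjusted p = 0.283) and -0.18 against *Ahrr*-KO (0.308), and their sum, from 2604.7 to 3870 in WT, was lower in every *Ahr*-KO sample, from 1923 to 2377. Nearly all of that sum was *Pecam1*, with mean normalized counts of 3168.8 in WT and 2020.7 in *Ahr*-KO (difference 0.63, standard error 0.10, limma adjusted p = 0.00116). Of the 9 endothelial genes, 6 had a higher mean value in WT than in *Ahr*-KO, *Pecam1* among them. *Vwf*, at 31.7 and 34.7, was not among these 6, with a difference of -0.08 (standard error 0.18, limma adjusted p = 0.831). Enterocyte markers were 0.25 (0.557) and -0.72 (0.308), and enteroendocrine markers, led by *Chgb*, were 0.22 (0.308) and -0.42 (0.283). Fibroblast and smooth muscle markers, led by *Acta2*, were 0.09 (0.557) and -0.63 (0.251), and macrophage and dendritic cell markers, led by *Itgax*, were 0.05 (0.831) and -0.37 (0.283). Of its 11 genes tested against *Ahr*-KO, 3 were called, beside 8.84% called over all tested genes. *Csf1r*, a growth factor receptor gene, was -0.49 (standard error 0.10, limma adjusted p = 0.00693) and was called in all 22 alternatives. The calls of *Itgax*, at -0.42 (standard error 0.12, limma adjusted p = 0.0376), and *Cd68*, higher in WT at 0.49 (standard error 0.15, limma adjusted p = 0.0486), were lost in 14 of 22 and 13 of 21 alternatives. The T cell and innate lymphocyte list, with *Kit* on top and *Gata3* and *Ncr1* under 1 count, gave 0.06 (0.706) and -0.10 (0.557). B and plasma cell markers, led by *Jchain*, gave 0.24 (0.308) and -0.48 (0.251). The mast cell list, with *Cpa3* on top and *Tpsb2* and *Fcer1a* under 1 count, gave -0.09 (0.308) and -0.34 (0.234), and glia and neuron markers gave -0.02 (0.831) and -0.05 (0.705). No marker of the 12 lists was at 0 in all samples. The part of other cell types in the values of *St18*, *Grhl1* and *Tbx2* was not tested.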

How the data were processed

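The study sequenced RNA of sorted small-intestinal eosinophils from 18 mice, 6 per genotype. The authors aligned reads to GRCm38 and counted them (STAR 2.5.2, RSEM 1.3.0), and they deposited DESeq2 variance-stabilized values on a log2 scale (R 4.0.3), which were used as deposited. Inverting the transformation gave whole counts for 100% of values (tolerance 0.0001), used for depth, normalized counts and count-based alternatives. The members and lists were chosen with earlier results of these data known. limma 3.58.1 in R 4.3.3 fitted each comparison with a trend and sex as covariate, over genes with a mean at least 1 above the lowest value, with a Benjamini-Hochberg adjusted p under 0.05. The 12 marker lists and the relations within genotypes used exact two-sided permutation tests. The fits were tested on simulated data. Alternatives were no or a stricter minimum mean, median centring, log2(count + 1), voom, no trend, a replicate block, no sex covariate, all 18 samples and leaving out samples. Named were the 3 genes, *Ahr* and *Ahrr*, called genes of the fixed lists with the relatives that had the most counts, the 5 nearest annotated genes on each side, called genes between *Grhl1* and *Ahr*, and the 5 most alike and 3 most opposite genes. Other names, given as examples, were chosen after their values were seen. Gene positions and promoters came from RefSeq (GRCm38.p6), matched for 22685 of 22708 genes. The rest used Python 3.11.15 (pandas 2.3.3, numpy 2.4.6, matplotlib 3.10.9, scipy 1.17.1).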

Additional observations from a re-analysis of the deposited data

Results flagged for a closer look

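In 6 of 63 groups of 6 samples examined, 1 sample lay far from the other 5 for its group, and chance gives such a sample in about 1 in 20 groups. All were means of marker lists, and none was a value of *St18*, *Grhl1* or *Tbx2*. The enteroendocrine markers were lowest in *Ahr*-KO F2, at 5.58, with the next sample at 5.82. The pancreatic acinar markers were highest in *Ahr*-KO M1, at 6.68 (next 5.67), and in *Ahrr*-KO M1, at 8.05 (next 6.30). The neutrophil markers were highest in WT F3, at 7.51 (next 7.06), in *Ahr*-KO F3, at 8.24 (next 7.00), and in *Ahrr*-KO F2, at 8.73 (next 7.63). WT F3 and *Ahr*-KO F3 are also the libraries with a count in the most genes.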

How the results depend on the processing

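No result reversed its direction while called. The WT minus *Ahr*-KO difference of *St18*, 1.80, was 4.40 on the log2(count + 1) scale and 4.65 with voom, and that of *Grhl1*, -2.06, was -3.13 and -3.21, since the deposited scale compresses low counts. WT minus *Ahrr*-KO of *St18* was -1.84 with either. For *Tbx2* the log2(count + 1) values were -3.34 and -0.82; it was fitted by limma only without a minimum mean, so its tests have no alternatives. With 1 sample left out at a time, *St18* ran from 1.72 to 1.93 and from -1.49 to -1.27, *Grhl1* from -2.15 to -1.91 and from -0.19 to 0.06, and *Tbx2* from -1.04 to -0.86 and from -0.30 to -0.09. The stricter minimum dropped *Grhl1* from every fit and *St18* from all but those against *Ahrr*-KO. The sex difference of *Grhl1*, 0.63, was not called without a minimum mean (0.63), on the log2(count + 1) scale (1.0) or without both WT F3 and *Ahr*-KO F3 (0.59), a setting chosen after seeing the data, and ran from 0.56 to 0.72 with 1 sample left out.

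The 1003 genes called between WT and *Ahr*-KO became 553 with all 18 samples and 586 without both F3 libraries, and ran from 623 to 1124 with 1 sample left out. The 9 called between WT and *Ahrr*-KO became 4 without a minimum mean, with centring, on the log2(count + 1) scale and with voom, 5 with the stricter minimum and 14 with all 18 samples, and ran from 4 to 25 with 1 sample left out. The 8 called genes of the family, partner, target and pathway lists, which leave out the cell type markers, ran from 6 to 11 against *Ahr*-KO, and 0 of these lists' genes were called against *Ahrr*-KO in every setting run. The cause of these changes was not tested. Depth limits the precision of *Tbx2* in WT and *Ahrr*-KO and of *St18* in *Ahr*-KO, where counts reach 6, 15 and 13.

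The replicate numbers did not pair the samples: the correlations of same-numbered deviations ran from -0.265 to 0.473 for *Ahr*-KO and from -0.592 to 0.335 for *Ahrr*-KO. A replicate block gave 918 called genes against *Ahr*-KO and 4 against *Ahrr*-KO.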
